A study of Homo sapiens with 9 samples.

Results

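The collagen genes of Huh-7 hepatocellular carcinoma cells were taken as every protein-coding gene of the deposited count table whose symbol is COL, a type number, A and a chain number. This gave 44 genes of 60664 in the table: 11 fibrillar, 6 basement membrane and 27 other collagens. Basement membrane here means type IV alone, so COL18A1 is counted among the other collagens. Of these, 30 (10, 4 and 16 of the respective classes) had enough reads to enter the test, among 17207 genes tested in all. The other 14 had at most 16 counts in any library.

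Poly(A) mRNA of 3 Huh-7 lines was sequenced, with 3 libraries per line. WT is the parental line. 1-1 KO is a line lacking the vault RNA gene VTRNA1-1, and WT and 1-1 KO came from another laboratory. 1-2 KO lacks VTRNA1-2 and is a single cell clone that was made from WT with CRISPR/Cas9. No line was treated further, and all were kept in DMEM F12 medium containing serum and antibiotics. Each knockout is thus 1 line, so that a difference from WT cannot be told apart from a difference between lines or clones. The paper calls the libraries of a line biological replicates, and the p-values measure the spread between these libraries only.

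Collagen molecules are triple helices of α chains, and each chain is encoded by its own gene. Types built from several different chains need the transcripts of all their chains, whereas other types are homotrimers. In liver, stellate cells and fibroblasts make most of the fibrillar collagen of scar tissue, hepatocytes are a known source of type XVIII, and type IV networks form basement membranes.

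Libraries held 32384469 to 41782387 counts, and 3 counts, taken here as the floor of detection in each library, corresponded to 0.0709 to 0.0951 CPM, the count scaled to a common sequencing depth. VTRNA1-1 had 1 count and VTRNA1-2 had 0 counts over all 9 libraries, WT included, so the deletions could not be checked in mRNA libraries. All 8 hepatocyte markers (ALB, AFP, APOA1, TTR, SERPINA1, HNF4A, TF and FGB) were expressed in every line. Of these, 7 rose in 1-1 KO and none fell, whereas 4 rose and 3 fell in 1-2 KO. Among all tested genes, 32.5% were higher in 1-1 KO and 30.9% lower, with 28.2% and 26.2% for 1-2 KO. The summed levels of the markers were 9793 to 10194 CPM in WT, 25326 to 26119 CPM in 1-1 KO and 16353 to 17826 CPM in 1-2 KO. 1-2 KO replicate 1 stood apart from its line: chi-square divided by its degrees of freedom was 15.1 and 16.1 against replicates 2 and 3, while for the other 7 pairs of libraries within a line it ran from 2.07 to 10.4. For single genes whose change or call rests on this library, the value or adjusted p without it is also given. Sums and ratios are means of all 3 libraries.

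In both knockout lines, more collagen genes were higher than lower. In 1-1 KO compared to WT, 22 of the 30 tested collagen genes passed an adjusted p of 0.05 in edgeR's quasi-likelihood test, 15 of them higher and 7 lower. Of all tested genes, 63.4% passed, 32.5% higher and 30.9% lower. Their median log2 fold change was 0.45, and the median over all tested genes was 0.01. In 1-2 KO compared to WT, 26 passed, 19 higher and 7 lower, where 54.4% of all tested genes passed, 28.2% higher and 26.2% lower. The median was 0.79 for the collagen genes and 0.02 for all genes. In each knockout, 11 collagen genes rose by more than 1 on the log2 scale and 4 fell by more than 1, where 9.4% and 3.97% of all tested genes did so in 1-1 KO, and 8.62% and 3.06% in 1-2 KO. Both comparisons use the same WT libraries.

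The counts by class were as follows, and differences between classes were not tested. Among the 10 fibrillar genes tested, 1-1 KO had 4 higher and 1 lower, and 1-2 KO had 8 higher and 1 lower. All 4 tested basement membrane genes were higher in 1-1 KO, while in 1-2 KO 1 was higher and 2 were lower. For the 16 remaining genes the counts were 7 higher and 6 lower in 1-1 KO, and 10 higher and 4 lower in 1-2 KO. In 1-1 KO, 50%, 100% and 81.2% of the fibrillar, basement membrane and other genes passed, beside 63.4% of all tested genes. In 1-2 KO these shares were 90%, 75% and 87.5%, beside 54.4%. The shares of all tested genes were 32.5% higher and 30.9% lower in 1-1 KO, and 28.2% and 26.2% in 1-2 KO.

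**Figure D1:**
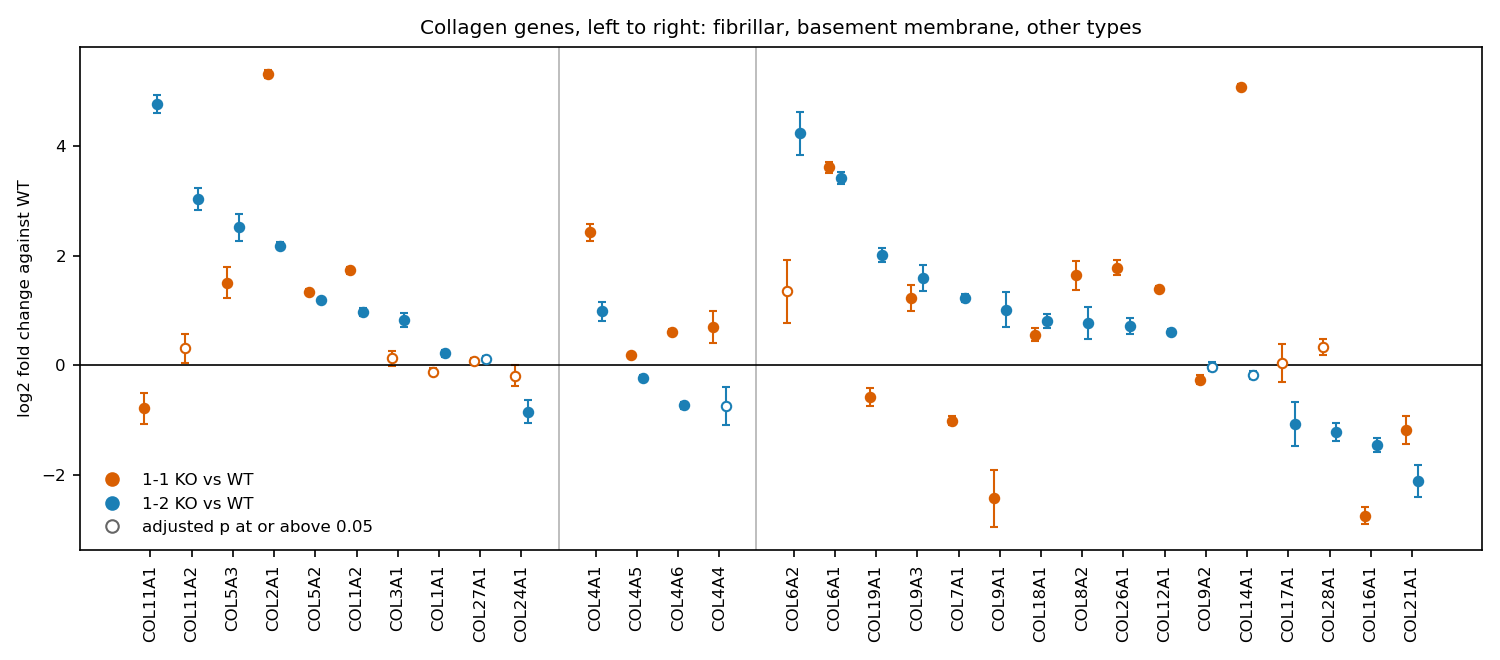
Log2 fold change of the 30 tested collagen genes in 1-1 KO (orange) and 1-2 KO (blue) compared to WT. Points are edgeR estimates from 3 libraries per line, bars are 1 standard error, open points did not pass an adjusted p of 0.05, and genes are ordered within each class by their value in 1-2 KO. COL2A1 (5.31) and COL14A1 (5.07) lie highest in 1-1 KO, COL11A1 (4.76) and COL6A2 (4.22) highest in 1-2 KO. COL6A2 was at the floor in WT and COL9A1 in 1-1 KO, so those fitted values depend on the prior count.

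The knockout lines also differed from each other. In the direct comparison of 1-2 KO with 1-1 KO, 27 of the 30 genes passed the test, 11 higher and 16 lower in 1-2 KO. Of all tested genes, 65.3% passed, 33.1% higher and 32.2% lower. Differences past 1 on the log2 scale were 8 higher and 8 lower, where 7.33% and 6.81% of all tested genes were, and the median was -0.18 for the collagen genes and 0.01 for all genes. All 4 basement membrane genes were lower in 1-2 KO. Of the 30 genes, 6 (20%) passed in both knockouts with opposite signs, compared with 11.7% of all tested genes: COL4A5 and COL4A6 were higher in 1-1 KO and lower in 1-2 KO, and COL7A1, COL9A1, COL11A1 and COL19A1 were lower in 1-1 KO and higher in 1-2 KO.

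Summed over the 44 genes and divided by exon length, the collagen transcript level was 126 ± 4.70 CPM per kb (SD, n = 3) in WT, 349 ± 4.79 in 1-1 KO and 263 ± 3.51 in 1-2 KO. The libraries of the 3 lines did not overlap. COL5A2 alone made up 66.3% ± 3.09 of this sum in WT, 60.7% ± 0.430 in 1-1 KO and 72.1% ± 2.88 in 1-2 KO. Without COL5A2, the sum was 42.3 ± 4.45 CPM per kb in WT, 137 ± 2.61 in 1-1 KO and 73.1 ± 6.61 in 1-2 KO, so the order of the lines stayed the same. In 1-2 KO this sum was 80.7 in replicate 1, 69.8 in replicate 2 and 68.7 in replicate 3. The class sums were 91.6 ± 5.13, 281 ± 4.86 and 208 ± 9.94 CPM per kb for the fibrillar genes, in the order WT, 1-1 KO, 1-2 KO. For the basement membrane genes, here type IV alone, they were 6.36 ± 0.216, 8.02 ± 0.0377 and 5.09 ± 0.184. For the other types they were 27.8 ± 4.54, 60.3 ± 0.194 and 49.7 ± 6.93 CPM per kb, including COL18A1 at 19.2, 28.3 and 33.5. In 1-2 KO the sum of the other types was 57.6 in replicate 1, 46.7 in replicate 2 and 44.7 in replicate 3.

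**Figure D2:**
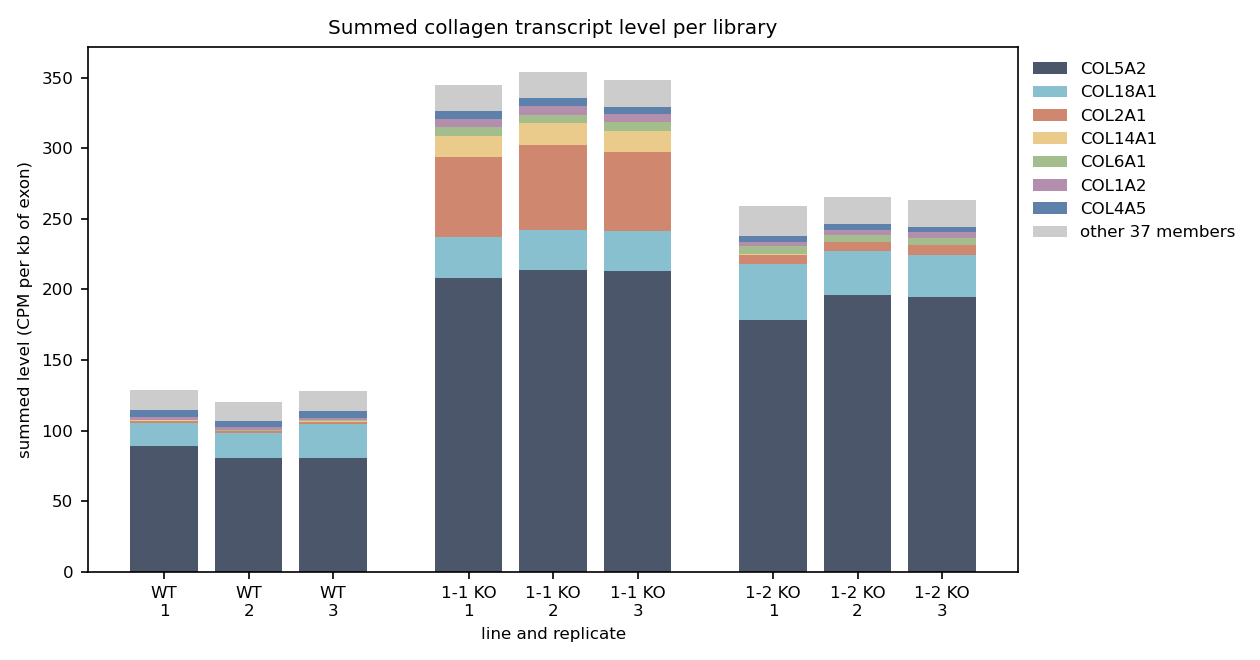
Summed level of all 44 collagen genes in each of the 9 libraries, in CPM per kb of exon, with each bar split by gene from COL5A2 at the bottom to the 37 genes not named in the legend at the top. The WT bars reach 120 to 129, the 1-1 KO bars 345 to 354 and the 1-2 KO bars 259 to 266, and COL2A1 is visibly thicker in 1-1 KO.

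The order of the genes by level per length changed between the lines. COL5A2 came first in all 3, at 83.4 ± 4.70 CPM per kb in WT, 212 ± 3.02 in 1-1 KO and 189 ± 9.87 in 1-2 KO, and no other gene overlapped with it. COL18A1 came second in WT (19.2 ± 4.11) and in 1-2 KO (33.5 ± 5.40). In 1-1 KO, second place went to COL2A1 at 57.7 ± 2.08, ahead of COL18A1 at 28.3 ± 0.244 and COL14A1 at 15.2 ± 0.380, each without overlap with the next. COL2A1 was eighth in WT at 1.46 ± 0.175 CPM per kb, where it overlapped with its neighbours in the order, COL4A6 and COL1A1.

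The fibrillar gene COL5A2 (chr2:189031898-189225312, GRCh38) encodes the α2 chain of type V collagen, which co-assembles with type I and limits fibril diameter. Its 3 libraries had 651, 591 and 591 CPM in WT, 1526, 1567 and 1560 CPM in 1-1 KO, and 1304, 1434 and 1423 CPM in 1-2 KO. All knockout libraries lay above all WT libraries, and the 1-1 KO libraries lay above those of 1-2 KO. The rise was 2.54-fold in 1-1 KO (log2 1.34 ± 0.05, SE, adjusted p = 1.76e-11) and 2.27-fold in 1-2 KO (1.18 ± 0.05, adjusted p = 6.86e-11). The 50 nearest tested genes on the chromosome had a median log2 fold change of 0.45 in 1-1 KO and 0.08 in 1-2 KO, and with that median removed the rise in 1-1 KO was 0.90 (adjusted p = 1.36e-09). The small difference between the knockouts, -0.16 (adjusted p = 0.00696), turned to 0.21 (adjusted p = 0.00124) under the same correction. The partner chain COL5A1 was at the floor in every line, with 0 to 3 counts per library. COL5A3, the third chain gene of type V, had 5 to 12 counts in WT, 26 to 28 in 1-1 KO and 49 to 63 in 1-2 KO. It rose by 1.51 and 2.51 on the log2 scale (adjusted p = 0.000314 and 1.07e-06). The neighbours of COL5A3 had medians of 0.52 and 0.19, and with these removed the rises were 0.999 and 2.33 (adjusted p = 0.00846 and 3.20e-06).

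COL3A1, the type III gene of distensible tissues, lies beside COL5A2 on chromosome 2 (188974373-189012746). It had 2.49, 1.92 and 2.03 CPM in WT, 2.43, 2.55 and 2.08 CPM in 1-1 KO, and 3.61, 3.82 and 4.07 CPM in 1-2 KO. The WT and 1-1 KO libraries overlapped, while the 1-2 KO libraries lay above both. The difference was 0.13 ± 0.14 in 1-1 KO (adjusted p = 0.418) and 0.83 ± 0.13 in 1-2 KO (adjusted p = 7.95e-05). Per length, COL5A2 exceeded COL3A1 by 265 ± 21.6 times in WT, 612 ± 68.6 times in 1-1 KO and 335 ± 12.0 times in 1-2 KO.

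COL2A1 (chr12:47972967-48004554), which encodes the main fibrillar collagen of cartilage, showed the largest rise of any tested collagen gene in 1-1 KO. It had 10.2, 8.37 and 10.6 CPM in WT, 379, 400 and 374 CPM in 1-1 KO, and 43.4, 41.8 and 46.6 CPM in 1-2 KO. The lines did not overlap. COL2A1 was 39.6-fold higher in 1-1 KO (log2 5.31 ± 0.07, adjusted p = 9.97e-16) and 4.53-fold higher in 1-2 KO (2.18 ± 0.07, adjusted p = 8.74e-12), and the lines differed by -3.13 ± 0.06 (adjusted p = 2.66e-14). Leaving out any library kept the value in 1-1 KO between 5.21 and 5.37, and its chromosomal neighbours had medians of -0.03 and 0.02.

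Type XI collagen, which forms mixed fibrils with type II in cartilage, rose in 1-2 KO. COL11A1 (chr1:102876467-103108872) had 0.829, 0.560 and 0.539 CPM in WT, 0.402, 0.535 and 0.196 CPM in 1-1 KO, and 17.9, 17.1 and 18.2 CPM in 1-2 KO. The 1-2 KO libraries were far above all others. It was 27.6-fold higher in 1-2 KO than in WT (log2 4.76 ± 0.16, adjusted p = 1.66e-11) and 46.9-fold higher than in 1-1 KO (5.54 ± 0.17, adjusted p = 3.85e-12). Its fall in 1-1 KO, -0.78 ± 0.28 (adjusted p = 0.0275), rested on few reads and on single libraries, with an adjusted p of 0.154 without WT replicate 1 (value -0.54), 0.134 without 1-1 KO replicate 3 (-0.47) and 0.0503 without 1-1 KO replicate 1. With the neighbours' median removed it was -0.55 (adjusted p = 0.118).

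COL11A2 encodes the second chain of type XI. It had 0.905, 0.453 and 0.476 CPM in WT, 0.638, 0.754 and 0.931 CPM in 1-1 KO, and 5.53, 5.07 and 4.67 CPM in 1-2 KO. It was 8.33-fold higher in 1-2 KO (log2 3.03 ± 0.20, adjusted p = 1.64e-08), and WT and 1-1 KO overlapped (0.31 ± 0.26, adjusted p = 0.313). Without WT replicate 1, the highest WT library, the value in 1-1 KO was 0.73 (adjusted p = 0.0220). Thus COL2A1, COL11A1 and COL11A2 were all higher in 1-2 KO than in WT (log2 2.18, 4.76 and 3.03). The line with the highest level differed: 1-1 KO for COL2A1 and 1-2 KO for both type XI genes. The level per length of COL11A1 over COL11A2 was 0.887 ± 0.132 in WT, 0.418 ± 0.217 in 1-1 KO and 2.84 ± 0.285 in 1-2 KO.

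Type I collagen is the main fibrillar collagen of bone, skin and scar, with COL1A1 chains outnumbering COL1A2 chains in its common form. COL1A2 had 19.5, 19.7 and 19.2 CPM in WT, 64.0, 70.3 and 60.4 CPM in 1-1 KO, and 35.3, 38.5 and 41.3 CPM in 1-2 KO. The lines did not overlap, and COL1A2 rose 3.33-fold in 1-1 KO (log2 1.73 ± 0.07, adjusted p = 3.98e-11) and 1.97-fold in 1-2 KO (0.98 ± 0.07, adjusted p = 2.11e-08). COL1A1 did not follow it. COL1A1 had 11.2, 11.1 and 11.9 CPM in WT, 10.4, 10.6 and 10.5 CPM in 1-1 KO, and 13.6, 13.6 and 12.7 CPM in 1-2 KO. Its difference was -0.12 ± 0.06 in 1-1 KO (adjusted p = 0.132) and 0.22 ± 0.06 in 1-2 KO (adjusted p = 0.00917). The neighbours of COL1A1 had a median of 0.21 in 1-2 KO, and with it removed the difference was 0.01 (adjusted p = 0.879). With no filter on low counts it was 0.21 with an adjusted p of 0.0530. Per length, COL1A2 exceeded COL1A1 by 1.43 ± 0.0731 times in WT, 5.14 ± 0.375 times in 1-1 KO and 2.42 ± 0.280 times in 1-2 KO.

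COL27A1 and COL24A1 are minor fibrillar collagens. COL27A1 had 44.3, 37.2 and 41.1 CPM in WT, 41.7, 43.6 and 44.5 CPM in 1-1 KO, and 46.8, 43.2 and 43.4 CPM in 1-2 KO. All 3 lines overlapped, and it was the only tested collagen gene that did not pass in either knockout compared to WT (0.08 ± 0.06 and 0.12 ± 0.06, adjusted p = 0.244 and 0.101). In 1-2 KO it passed under library-size scaling alone (0.18, adjusted p = 0.0267) and without WT replicate 1 (0.18, adjusted p = 0.0199). COL24A1 had 2.41, 1.49 and 2.00 CPM in WT, 2.10, 1.65 and 1.45 CPM in 1-1 KO, and 0.973, 1.03 and 1.30 CPM in 1-2 KO. All 1-2 KO libraries lay below all others, and the fall in 1-2 KO was -0.84 ± 0.21 (adjusted p = 0.00332), while 1-1 KO differed by -0.18 ± 0.19 (adjusted p = 0.426).

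**Figure D3:**
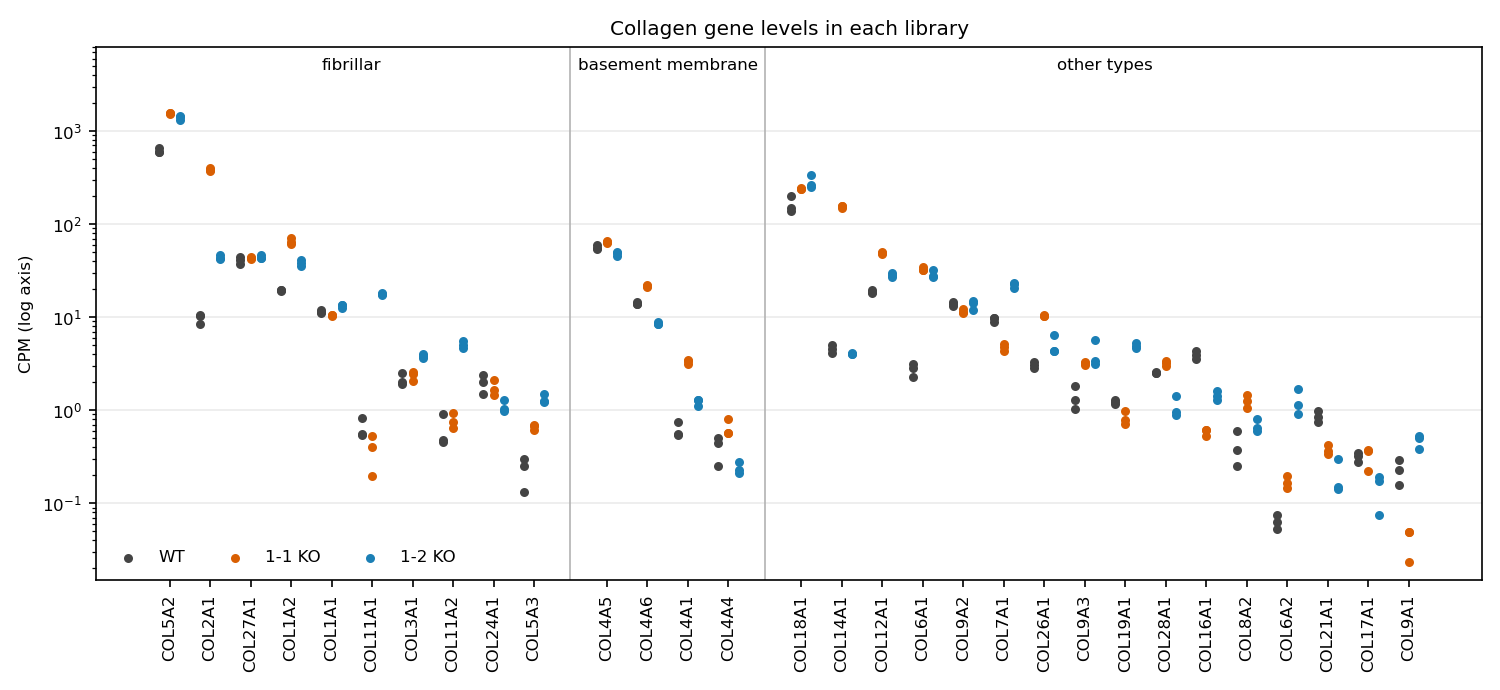
Level of the 30 tested collagen genes in each library, in CPM on a log axis, by class and by falling mean. Each dot is 1 library of WT (grey), 1-1 KO (orange) or 1-2 KO (blue). COL5A2 lies between 591 and 1567 CPM, above every other gene in each line, and COL2A1 and COL14A1 in 1-1 KO and COL11A1 in 1-2 KO lie far above the dots of the other lines.

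The 6 type IV genes of basement membranes lie as 3 head-to-head pairs, whose members start from opposite strands of a short shared stretch of DNA. The stretches are printed here because the pairs differed in these lines: COL4A5 and COL4A6 were both expressed and changed in the same directions, while COL4A1 rose with COL4A2 at or near the floor. Sequences are from RefSeq (GRCh38.p14), read 5′ to 3′ on the plus strand up to the base before the start of the plus-strand gene. For the first pair the whole stretch of 126 bases between the starts is shown, and for the others the 250 bases nearest to the plus-strand gene, of 418 and 379 between the starts. COL4A6 has a further start that was not used here. All starts here are from RefSeq, and GENCODE places those of COL4A2, COL4A4 and COL4A6 elsewhere. Capitals mark CCAAT boxes (CCAAT or ATTGG) and GC boxes (GGGCGG or CCGCCC).
COL4A1 and COL4A2, chr13:110307158-110307283: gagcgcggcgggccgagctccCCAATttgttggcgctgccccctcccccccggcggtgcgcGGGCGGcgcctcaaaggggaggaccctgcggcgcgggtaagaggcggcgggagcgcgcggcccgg
COL4A4 and COL4A3, chr2:227164374-227164623: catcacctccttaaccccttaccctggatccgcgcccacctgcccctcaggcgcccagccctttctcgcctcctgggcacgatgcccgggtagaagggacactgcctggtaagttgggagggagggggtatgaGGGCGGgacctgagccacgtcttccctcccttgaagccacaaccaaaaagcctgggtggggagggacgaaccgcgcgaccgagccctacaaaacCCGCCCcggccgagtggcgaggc
COL4A6 and COL4A5, chrX:108439588-108439837: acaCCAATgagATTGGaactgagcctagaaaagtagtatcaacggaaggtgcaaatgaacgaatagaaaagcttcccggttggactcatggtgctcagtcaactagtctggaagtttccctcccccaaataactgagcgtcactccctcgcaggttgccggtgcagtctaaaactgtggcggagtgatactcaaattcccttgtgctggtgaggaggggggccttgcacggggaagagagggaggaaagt

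The sequence printed for COL4A1 and COL4A2 held 1 CCAAT box and 1 GC box, that of COL4A3 and COL4A4 held 2 GC boxes and no CCAAT box, and that of COL4A5 and COL4A6 held 2 CCAAT boxes and no GC box. The TATA motif (TATAAA or TTTATA) was not in the printed sequences. What lies beyond the printed bases of the COL4A3 and COL4A5 pairs was not searched. The GC contents of the printed sequences were 80.2%, 66.4% and 51.2%. Among 35116 RefSeq promoter windows of 300 bases, 34.6% held a CCAAT box, 45.0% a GC box and 11.5% the TATA motif on either strand. Promoter windows were given for 32 of the 44 collagen genes, 44 windows in all, and 31.8%, 54.5% and 18.2% of these held the motifs. A match is a run of letters only and does not show that a factor binds there. The genes without an entry were COL1A1, COL1A2, COL2A1, COL3A1, COL5A2, COL6A1, COL6A5, COL8A1, COL9A3, COL14A1, COL20A1 and COL22A1.

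COL4A5 and COL4A6 encode chains of the basement membranes of kidney, skin and smooth muscle. COL4A5 had 59.7, 55.1 and 54.1 CPM in WT, 63.0, 63.9 and 65.1 CPM in 1-1 KO, and 45.3, 50.2 and 48.9 CPM in 1-2 KO. The lines did not overlap, but the distances were small. The difference was 0.18 ± 0.05 in 1-1 KO (adjusted p = 0.00381) and -0.23 ± 0.05 in 1-2 KO (adjusted p = 0.00112). COL4A6 had 13.8, 14.7 and 14.01 CPM in WT, 22.1, 21.7 and 21.1 CPM in 1-1 KO, and 8.88, 8.49 and 8.38 CPM in 1-2 KO. It rose 1.53-fold in 1-1 KO (log2 0.61 ± 0.06, adjusted p = 4.21e-07) and was 1.65-fold lower in 1-2 KO (-0.72 ± 0.06, adjusted p = 2.00e-07). Per length, COL4A6 reached 0.323 ± 0.0238 of the COL4A5 level in WT, 0.432 ± 0.0167 in 1-1 KO and 0.229 ± 0.0191 in 1-2 KO, so both genes changed in the same directions and COL4A6 by more. The 50 nearest tested genes had a median of -0.07 in 1-2 KO and one nearer to 0 in 1-1 KO.

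COL4A1 and COL4A2 encode the chains of the most widespread type IV network, which contains both. COL4A1 had 0.553, 0.747 and 0.539 CPM in WT, 3.12, 3.50 and 3.36 CPM in 1-1 KO, and 1.28, 1.10 and 1.27 CPM in 1-2 KO. It rose 5.43-fold in 1-1 KO (log2 2.43 ± 0.16, adjusted p = 8.52e-09) and 1.99-fold in 1-2 KO (0.99 ± 0.18, adjusted p = 0.000323), with no overlap between lines. COL4A2, in contrast, was at the floor in WT (2, 1 and 1 counts) and 1-1 KO (2, 1 and 0 counts) and had 7, 3 and 4 counts in 1-2 KO, too few for a test. In 1-2 KO its level per length was 0.0701 ± 0.0250 of that of COL4A1. In GENCODE, COL4A2 starts at 110305812, before COL4A1 ends at 110307157, so the genes overlap on opposite strands there. The RefSeq starts used for the printed sequence do not overlap. Since the use of strand in the counting was not stated, reads from the overlap may have been assigned to neither or to the other gene.

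COL4A3 and COL4A4 encode chains of the kidney glomerular basement membrane and were low in every line. COL4A4 had 10 to 19 counts in WT, 23 to 33 in 1-1 KO and 9 to 11 in 1-2 KO, and COL4A3 had 4 to 6, 4 to 16 and 3 to 5 counts. COL4A4 was higher in 1-1 KO by 0.70 ± 0.29 (adjusted p = 0.0464), and the adjusted p was above 0.05 in 5 of the 6 fits without 1 library, the highest being 0.215 without WT replicate 1 (value 0.43). The knockout lines differed from each other by -1.43 ± 0.31 (adjusted p = 0.000978).

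**Figure D4:**
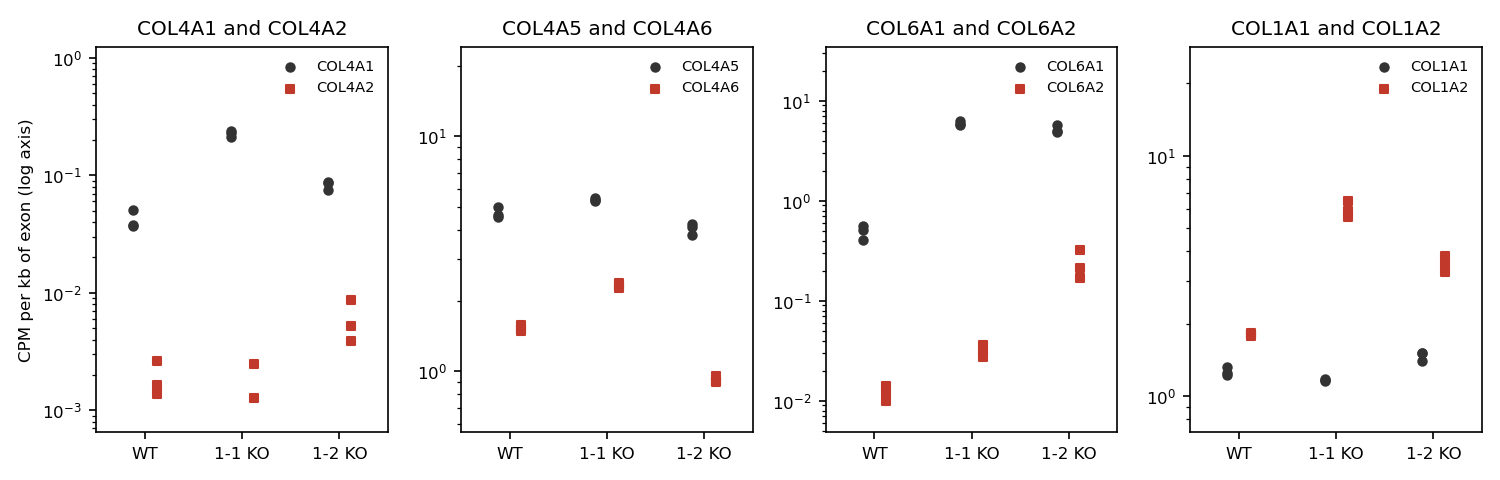
Level per length, in CPM per kb of exon on log axes, of 4 pairs of chain genes in each library of the 3 lines. Circles are the first and squares the second gene of each pair, and libraries at 0 counts are not drawn. COL4A5 and COL4A6 rise and fall together, COL6A2 stays far below COL6A1, and COL1A2 lies farther above COL1A1 in 1-1 KO than in WT.

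Among the other types, COL14A1 (chr8:120059780-120373573) had the largest difference from WT in 1-1 KO, and COL6A2 and COL6A1 in 1-2 KO. Type XIV is a FACIT, a collagen that decorates the surface of fibrils. COL14A1 had 5.08, 4.11 and 4.597 CPM in WT, 155, 158 and 150 CPM in 1-1 KO, and 4.04, 4.04 and 4.17 CPM in 1-2 KO. All 1-1 KO libraries were far above the other lines, which overlapped. It was 33.6-fold higher in 1-1 KO (log2 5.07 ± 0.06, adjusted p = 5.09e-16), while 1-2 KO differed from WT by -0.17 ± 0.08 (adjusted p = 0.0952; without WT replicate 2, -0.25 with an adjusted p of 0.0284). Its 50 neighbours had a median of 0.41 in 1-1 KO, and the rise with this removed was 4.66.

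Type VI forms beaded microfilaments from chains of COL6A1, COL6A2 and a further chain such as that of COL6A3. COL6A1 (chr21:45981770-46005050) had 2.26, 2.83 and 3.11 CPM in WT, 32.4, 31.9 and 34.7 CPM in 1-1 KO, and 32.001, 27.1 and 27.5 CPM in 1-2 KO. It rose 12.1-fold in 1-1 KO (log2 3.61 ± 0.10, adjusted p = 2.06e-12) and 10.6-fold in 1-2 KO (3.41 ± 0.10, adjusted p = 3.66e-12). The knockout libraries overlapped, and the difference between the knockouts (-0.19 ± 0.08, adjusted p = 0.0394) had an adjusted p above 0.05 in 5 of the 6 fits without 1 library, up to 0.151, and was 0.003 with the neighbours' median removed. COL6A2, its neighbour on the same strand, had 3, 2 and 2 counts in WT, 7, 8 and 6 in 1-1 KO, and 72, 36 and 46 in 1-2 KO. It was at least 15.02-fold higher in 1-2 KO than in WT (adjusted p = 4.88e-07) and 7.42-fold higher than in 1-1 KO (adjusted p = 1.49e-06). Without 1-2 KO replicate 1, its highest library, the log2 values were 3.93 in place of 4.22 and 2.58 in place of 2.87, and both still passed. In 1-1 KO, the difference of COL6A2 from WT did not pass (log2 1.35 ± 0.58, adjusted p = 0.0546). It was 0.90 (adjusted p = 0.206) with the neighbours' median removed, and passed only in the fit with a replicate block (adjusted p = 0.0353). COL6A2 reached 0.00534 ± 0.000964 of the COL6A1 level per length in 1-1 KO and 0.0444 ± 0.0105 in 1-2 KO. COL6A3 was at the floor in every line with 0 to 3 counts, COL6A5 had at most 1 count, and COL6A6 had 1 to 4.

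COL18A1 (chr21:45405165-45513720), the multiplexin whose C-terminal fragment is endostatin, had 137, 148 and 202 CPM in WT, 242, 238 and 238 CPM in 1-1 KO, and 336, 263 and 252 CPM in 1-2 KO. All knockout libraries lay above all WT libraries, with WT replicate 3 and 1-2 KO replicate 1 high within their lines. The rise was 1.47-fold in 1-1 KO (log2 0.56 ± 0.12, adjusted p = 0.00106) and 1.75-fold in 1-2 KO (0.81 ± 0.12, adjusted p = 6.21e-05), the latter 0.67 without 1-2 KO replicate 1. COL18A1 lies near the end of chromosome 21, where only 37 neighbours were tested. In 1-1 KO they had a median of 0.48, and with it removed the difference for COL18A1 was 0.08 (adjusted p = 0.607). In 1-2 KO the neighbours had a median of 0.26, and 0.54 remained (adjusted p = 0.00180). SLC19A1 on the opposite strand had 15484 counts in all against 81866 for COL18A1. COL6A1 and COL6A2 share this end of the chromosome, and the rise of COL6A1 was 3.14 in 1-1 KO and 3.15 in 1-2 KO after the same correction.

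COL7A1, COL19A1 and COL9A1 were lower in 1-1 KO and higher in 1-2 KO. COL7A1 (chr3:48564073-48595329) encodes the anchoring fibrils below epithelial basement membranes and had 9.87, 8.96 and 9.80 CPM in WT, 4.37, 5.11 and 4.78 CPM in 1-1 KO, and 23.5, 22.98 and 20.5 CPM in 1-2 KO. Its lines did not overlap: it was 2.01-fold lower in 1-1 KO (log2 -1.01 ± 0.09, adjusted p = 1.74e-07) and 2.34-fold higher in 1-2 KO (1.23 ± 0.08, adjusted p = 8.58e-09). The FACIT gene COL19A1 had 1.16, 1.23 and 1.30 CPM in WT, 0.709, 0.973 and 0.784 CPM in 1-1 KO, and 4.96, 5.22 and 4.69 CPM in 1-2 KO. It fell 1.49-fold in 1-1 KO (-0.57 ± 0.16, adjusted p = 0.00705) and rose 4.04-fold in 1-2 KO (2.02 ± 0.13, adjusted p = 1.06e-08), again without overlap. COL19A1 overlaps LMBRD1 on the opposite strand, which had 33080 counts in all against 840 for COL19A1.

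Type IX is a FACIT that coats type II fibrils and contains chains of COL9A1, COL9A2 and COL9A3, which did not move together. COL9A1 had 5 to 11 counts in WT, 1 to 2 in 1-1 KO and 16 to 21 in 1-2 KO. It was at least 3.12-fold lower in 1-1 KO than in WT (adjusted p = 0.00102) and 2.07-fold higher in 1-2 KO (log2 1.02 ± 0.32, adjusted p = 0.0142), the latter with an adjusted p of 0.0600 without WT replicate 3 and 0.157 in DESeq2. COL9A3 had 1.03, 1.28 and 1.81 CPM in WT, 3.07, 3.26 and 3.19 CPM in 1-1 KO, and 5.65, 3.42 and 3.14 CPM in 1-2 KO. It rose in both, by 1.23 ± 0.24 (adjusted p = 0.000416) and 1.59 ± 0.23 (adjusted p = 4.39e-05), the latter 1.28 without 1-2 KO replicate 1. COL9A3 overlaps TCFL5 on the opposite strand, with 3541 counts in all against 1040. COL9A2 had 13.8, 13.1 and 14.6 CPM in WT, 11.4, 11.0 and 12.3 CPM in 1-1 KO, and 14.96, 14.04 and 12.0 CPM in 1-2 KO. It fell by 0.26 ± 0.08 in 1-1 KO (adjusted p = 0.0159), and the adjusted p was 0.0503, 0.0652 and 0.0651 without 1-1 KO replicates 1 and 2 and WT replicate 3. With the neighbours' median removed the value was -0.10 (adjusted p = 0.320), and with library size alone it was -0.21 (adjusted p = 0.0548). The value in 1-2 KO was -0.02 ± 0.08 (adjusted p = 0.857). Per length, COL9A2 exceeded COL9A3 by 12.2 ± 3.08 times in WT, 4.20 ± 0.276 times in 1-1 KO and 4.04 ± 0.886 times in 1-2 KO.

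COL12A1, a FACIT of type I fibrils, rose in both knockouts. It had 18.02, 18.6 and 19.5 CPM in WT, 49.0, 50.2 and 47.5 CPM in 1-1 KO, and 27.1, 28.4 and 29.8 CPM in 1-2 KO. The lines did not overlap, with a rise of 2.61-fold in 1-1 KO (log2 1.39 ± 0.05, adjusted p = 3.57e-11) and 1.52-fold in 1-2 KO (0.61 ± 0.05, adjusted p = 3.02e-07). COL26A1 had 3.04, 2.83 and 3.30 CPM in WT, 10.7, 10.4 and 10.3 CPM in 1-1 KO, and 6.46, 4.29 and 4.34 CPM in 1-2 KO. It was likewise highest in 1-1 KO (3.43-fold, 1.78 ± 0.14, adjusted p = 5.76e-08). In 1-2 KO the rise was 0.73 ± 0.15 (adjusted p = 0.000739), and 0.50 (adjusted p = 0.000884) without replicate 1, its highest library. COL8A2, a short chain of hexagonal networks, had 10 to 19 counts in WT, 43 to 61 in 1-1 KO and 24 to 32 in 1-2 KO and rose by 1.64 ± 0.27 in 1-1 KO (adjusted p = 8.78e-05). In CPM, WT and 1-2 KO overlapped, with 0.602 in WT replicate 3 and 0.599 in 1-2 KO replicate 3. The rise of COL8A2 in 1-2 KO (0.77 ± 0.29, adjusted p = 0.0389) failed the threshold in 4 of 6 fits without 1 library. The adjusted p was 0.0551 and 0.129 without 1-2 KO replicates 1 and 2, and 0.179 and 0.104 without WT replicates 1 and 2. It was 0.119 in DESeq2 and 0.0633 in the fit of 2 lines.

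Other genes fell in 1 or both knockouts. The FACIT gene COL16A1 had 4.30, 3.89 and 3.55 CPM in WT, 0.614, 0.535 and 0.613 CPM in 1-1 KO, and 1.28, 1.43 and 1.60 CPM in 1-2 KO. It was 6.66-fold lower in 1-1 KO (log2 -2.73 ± 0.15, adjusted p = 1.85e-09) and 2.72-fold lower in 1-2 KO (-1.45 ± 0.13, adjusted p = 4.05e-07), without overlap between lines. COL21A1, another FACIT, had 30 to 32 counts in WT, 14 to 18 in 1-1 KO and 6 to 12 in 1-2 KO and also fell in both, by -1.17 ± 0.26 and -2.11 ± 0.30 (adjusted p = 0.00119 and 3.10e-05). COL28A1 had 2.51, 2.56 and 2.504 CPM in WT, 2.95, 3.40 and 3.19 CPM in 1-1 KO, and 0.950, 1.43 and 0.898 CPM in 1-2 KO. Here only 1-2 KO was lower, 2.31-fold (-1.21 ± 0.16, adjusted p = 2.38e-05). The value in 1-1 KO was 0.33 ± 0.14 (adjusted p = 0.0556) and became -0.26 with the neighbours' median of 0.59 removed. COL17A1, a transmembrane collagen of hemidesmosomes, had 11 to 12 counts in WT, 9 to 16 in 1-1 KO and 3 to 8 in 1-2 KO. Its fall in 1-2 KO (-1.07 ± 0.40, adjusted p = 0.0364) had an adjusted p above 0.05 in 4 of 6 fits without 1 library, among them 0.136 without 1-2 KO replicate 3 (value -0.76), and 0.152 in DESeq2.

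The remaining collagen genes were barely detected. At the floor in all 3 lines were 10 genes, COL5A1, COL6A3, COL6A5, COL8A1, COL13A1, COL15A1, COL20A1, COL22A1, COL23A1 and COL25A1. COL10A1, the type X gene of hypertrophic cartilage, had 4 to 11 counts in WT, 4 to 7 in 1-1 KO and 4 to 8 in 1-2 KO, and lies opposite NT5DC1, which had 16944 counts in all.

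Collagen chains are hydroxylated, glycosylated, folded, exported, trimmed and cross-linked by dedicated proteins. Of 35 such genes, 32 were tested. In 1-1 KO 23 were higher and 7 lower, with a median log2 fold change of 0.40, and in 1-2 KO 15 were higher and 6 lower, with a median of 0.07. The shares that passed were 93.8% and 65.6%, beside the 63.4% and 54.4% of all tested genes given above. TLL1, a procollagen C-proteinase, had 4.55, 4.61 and 4.34 CPM in WT, 25.7, 25.7 and 24.3 CPM in 1-1 KO, and 16.8, 19.03 and 18.8 CPM in 1-2 KO, a rise of 2.48 ± 0.07 and 2.01 ± 0.07 (adjusted p = 2.67e-12 and 2.86e-11). The cross-linking enzymes of the lysyl oxidase family went different ways. LOX had 15.7, 16.2 and 15.7 CPM in WT, 34.5, 35.6 and 36.2 CPM in 1-1 KO, and 8.52, 8.66 and 8.31 CPM in 1-2 KO, that is, 1.16 ± 0.05 higher and 0.90 ± 0.06 lower on the log2 scale (adjusted p = 1.78e-10 and 7.32e-09). LOXL2 and LOXL4 had the opposite signs, at -1.27 ± 0.05 and -0.29 ± 0.03 in 1-1 KO (adjusted p = 1.15e-10 and 4.86e-06) and 0.20 ± 0.05 and 0.84 ± 0.03 in 1-2 KO (adjusted p = 0.00455 and 9.94e-11). MIA2, which helps to load large cargo such as procollagen for export, was 0.45 ± 0.04 higher in 1-1 KO and 0.73 ± 0.04 lower in 1-2 KO (adjusted p = 2.71e-07 and 3.46e-09).

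**Figure D5:**
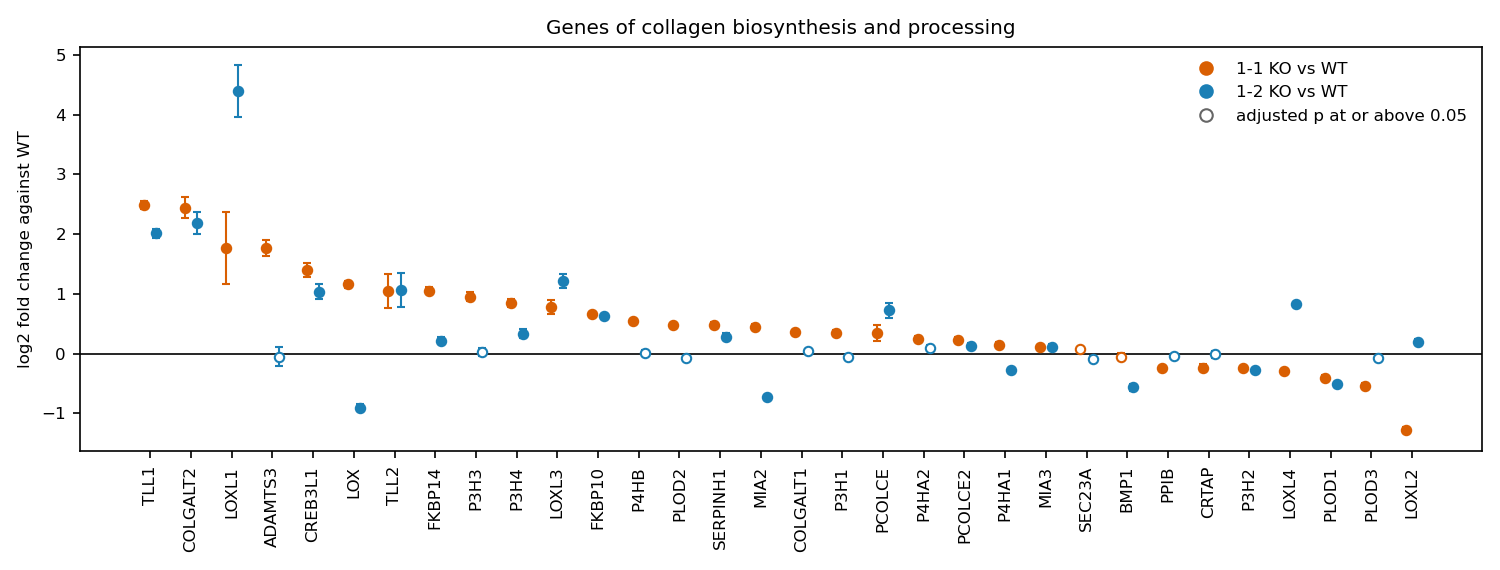
Log2 fold change of the 32 tested genes of collagen biosynthesis and processing in 1-1 KO (orange) and 1-2 KO (blue) compared to WT, ordered by the value in 1-1 KO. Points are edgeR estimates from 3 libraries per line with bars of 1 standard error, and open points did not pass an adjusted p of 0.05. TLL1 is high in both lines (2.48 and 2.01), and LOX (1.16 and -0.90) and LOXL2 (-1.27 and 0.20) have opposite signs.

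Cells sense collagen through integrins of the β1 chain and through discoidin domain receptors. Of 10 receptor genes, 7 were tested. Higher and lower were 2 and 4 genes in 1-1 KO (median -0.43), and 3 and 2 in 1-2 KO (median 0.17). Of all tested genes, 32.5% were higher and 30.9% lower in 1-1 KO, and 28.2% and 26.2% in 1-2 KO. ITGA2, the α2 integrin chain, had 96.7, 104 and 97.3 CPM in WT, 42.02, 40.8 and 40.6 CPM in 1-1 KO, and 37.8, 41.7 and 38.1 CPM in 1-2 KO, and fell by -1.27 ± 0.05 and -1.34 ± 0.05 (adjusted p = 2.65e-11 and 1.86e-11). ITGA1 fell by -1.02 ± 0.04 in 1-1 KO but rose by 0.17 ± 0.04 in 1-2 KO (adjusted p = 3.27e-11 and 0.00114), and the shared chain ITGB1 fell by -0.43 ± 0.03 and -0.33 ± 0.03 (adjusted p = 5.95e-08 and 1.33e-06). DDR1, a collagen-activated kinase, rose by 0.90 ± 0.07 and 1.18 ± 0.07 (adjusted p = 1.16e-07 and 7.99e-09), whereas DDR2 differed by -0.05 ± 0.23 and 0.07 ± 0.23 (adjusted p = 0.874 and 0.828). The endocytic receptor MRC2 had 0 to 2 counts in WT, 12 to 19 in 1-1 KO and 13 to 34 in 1-2 KO, which puts the rises above 4.15-fold and 6.12-fold as lower bounds (adjusted p = 0.000763 and 0.000137). ITGA10 fell in 1-1 KO by -1.35 ± 0.39 (adjusted p = 0.00771) and was 0.21 ± 0.32 from WT in 1-2 KO (adjusted p = 0.601).

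Of 16 laminin, nidogen and other basement membrane partners of type IV, 12 were tested, with 6 higher and 4 lower in 1-1 KO (median 0.16) and 8 higher and 3 lower in 1-2 KO (median 0.34). This was 83.3% and 91.7% of those tested, where 63.4% and 54.4% of all tested genes passed. NID2, a linker between laminin and type IV networks, rose by 1.60 ± 0.08 and 1.11 ± 0.08 (adjusted p = 4.65e-10 and 3.19e-08), and LAMB2 by 0.66 ± 0.04 and 0.48 ± 0.04 (adjusted p = 1.08e-08 and 4.13e-07). LAMA4 fell by -0.74 ± 0.07 and -1.75 ± 0.08 (adjusted p = 4.59e-07 and 1.68e-10).

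Markers of cell types that make collagen in liver were looked at, although the libraries came from cultured Huh-7 lines and not from liver tissue. In bulk RNA, fewer expressing cells and less RNA per cell cannot be told apart. Of 12 stellate cell and fibroblast markers, 7 were tested. Higher and lower were 3 and 3 of these in 1-1 KO, and 2 and 3 in 1-2 KO, or 85.7% and 71.4%, beside 63.4% and 54.4% of all tested genes. FAP and THY1 were at the floor in every line, POSTN was so in WT and 1-1 KO with 3 to 7 counts in 1-2 KO, and DCN and LRAT had at most 5 and 6 counts. The summed level of the list was 1018 to 1032 CPM in WT, 686 to 694 CPM in 1-1 KO and 702 to 707 CPM in 1-2 KO, most of it VIM (852, 453 and 622 CPM on average, -0.91 ± 0.03 and -0.45 ± 0.03). Without VIM, a sum added after seeing the data, the level of the other 11 markers was 164 to 176 CPM in WT, 232 to 243 CPM in 1-1 KO and 79.3 to 85.7 CPM in 1-2 KO, so the order of the lines depended on VIM. LUM, a collagen-binding proteoglycan, had means of 157, 206 and 62.1 CPM (0.39 ± 0.04 and -1.34 ± 0.04), and PDGFRA differed by 1.84 ± 0.08 and -0.70 ± 0.09, PDGFRB by 1.61 ± 0.13 and 1.87 ± 0.13, ACTA2 by -5.06 ± 0.28 and 1.16 ± 0.14, DES by -3.31 ± 0.55 and 0.37 ± 0.33, and RGS5 by -0.06 ± 0.11 and 0.11 ± 0.11. Of 5 endothelial markers, 1 was tested, PECAM1, which differed by -0.18 ± 0.09 in 1-1 KO (adjusted p = 0.0965) and fell by -3.17 ± 0.12 in 1-2 KO (adjusted p = 5.05e-11), and its list had a summed level of 7.42 to 8.04 CPM in WT, 6.43 to 7.22 in 1-1 KO and 0.831 to 1.10 in 1-2 KO. KDR and TEK had at most 1 count in any library, and CDH5 and VWF at most 7. These values are levels of marker genes in cultures of Huh-7 lines, and the presence of other cell types was not tested.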

How the data were processed

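Counts were deposited by the authors as a table of reads per Ensembl gene in 9 libraries, made from paired-end TruSeq stranded mRNA libraries by alignment to GRCh38 with STAR and counting with featureCounts, per the paper's methods and the submitters' notes, with no normalization. Tool versions and the strand and multi-mapping settings are not given in the sources used here, so genes that overlap on opposite strands are uncertain. Symbols and positions came from GENCODE 44, which held 60463 of 60664 identifiers. The 201 others carried 0.0192% of the counts.

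Differential expression was tested in R 4.3.3 with edgeR 4.0.16 (filterByExpr with a minimum count of 10 and minimum total of 15, TMM, quasi-likelihood F test, 1 fit of all 9 libraries with a term per line), with Benjamini-Hochberg adjustment over 17207 genes and a threshold of 0.05. The test was run on simulated data with known changes first. Standard errors of log2 fold changes were derived as the absolute log2 fold change divided by the square root of the F statistic. The libraries held 32384469 to 41782387 counts. Bounds leave out the counting error of the line above the floor. CPM were computed with TMM-scaled library sizes, and levels per length by division by the merged exon length. A line with 3 counts or fewer in every library was treated as at the floor, and folds against it are bounds computed from 3 counts per library. Values of all libraries are given for collagen genes averaging 1 CPM or more, or at the floor in 1 line and at 1 CPM or more in another, and the rest by range. Of each other list, the 3 genes with the smallest adjusted p per knockout are named, or all where 10 or fewer were tested. A gene that this rule names among the basement membrane partners is not reported here. Neighbouring genes set side by side are those of types IV and VI, and COL3A1 with COL5A2. The alternatives were DESeq2 1.42.0, other scalings, other filters, a fit of 2 lines, a replicate block, a threshold of 0.01, removal of the median change of the 50 nearest tested genes (25 per side, fewer at chromosome ends), and leaving out each library, the last added for the summed levels after seeing the data. The collagen genes, lists and tests were chosen with earlier results of these data known. Python 3.11.15, pandas 2.3.3 and matplotlib 3.10.9 were used for tables and figures.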

Additional observations from a re-analysis of the deposited data

Results flagged for a closer look

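For the 6 collagen genes that passed the test in both knockouts with opposite signs, the direct comparison of 1-2 KO with 1-1 KO is given here. Its value is the difference between the changes of the knockouts against WT, so it follows from the opposite signs. It is no separate support for them. On the log2 scale, 1-2 KO was lower than 1-1 KO by -0.41 for COL4A5 (adjusted p = 3.22e-06) and by -1.33 for COL4A6 (adjusted p = 1.36e-10). It was higher by 2.23 for COL7A1 (adjusted p = 1.94e-11), 3.44 for COL9A1 (adjusted p = 8.86e-06; at least 6.47-fold, since COL9A1 was at the floor in 1-1 KO), 5.54 for COL11A1 (adjusted p = 3.85e-12) and 2.59 for COL19A1 (adjusted p = 6.80e-10). All 6 differences passed under every alternative in which the gene was tested. The opposite calls against WT were less firm for COL11A1, whose fall in 1-1 KO was lost in 3 of 6 fits without 1 library, and for COL9A1, whose rise in 1-2 KO was lost without WT replicate 3. COL4A5 and COL4A6 start within 379 bases of each other, so they are not separate regions of the genome. The same holds for COL19A1 (chr6:69866556-70212468) and COL9A1 (chr6:70216040-70303084), which lie close together and changed in the same directions. Libraries were compared in pairs within each line, where 1-2 KO replicate 1 stood apart, and each was left out in turn. The main fit kept all 9 libraries.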

How the results depend on the processing

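Of the collagen genes that passed, 18 of 22 in 1-1 KO, 22 of 26 in 1-2 KO and 21 of 27 in the direct comparison passed under every alternative in which they were tested. For the log2 ratios of summed levels between lines, 95 alternatives stayed within the combined SD of the libraries. Past it moved 1, and 0 changed sign. With at least 10 counts required in every library, 23 collagen genes were tested, and those lower in 1-1 KO were 4 in place of 7 and those higher in 1-2 KO than in 1-1 KO 7 in place of 11, since fewer genes were tested. Signs turned for these values, with causes not tested. Leaving out 1 library gave -0.354 to 0.0018 for COL24A1 and -0.0933 to 0.246 for COL17A1 in 1-1 KO (below 0 without WT replicate 1 at -0.05, and without 1-1 KO replicates 1 at -0.09 and 2 at -0.06), and -0.0908 to 0.0676 for COL9A2 in 1-2 KO. Library size alone gave 0.0359 for COL9A2 in 1-2 KO. Removing the neighbours' median gave -0.32 for COL3A1, -0.26 for COL28A1 and -0.11 for COL27A1 in 1-1 KO, 0.13 for COL9A2 in 1-2 KO, and between the knockouts 0.21 for COL5A2 and 0.00304 for COL6A1, which had both passed as lower.

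Without 1-2 KO replicate 1, the calls of COL8A2 against WT (adjusted p = 0.0551) and of COL9A2 and COL21A1 against 1-1 KO (0.0937 and 0.102) were lost. Between the knockouts, the calls of COL9A2, COL17A1, COL21A1 and COL24A1 were lost in 4, 3, 3 and 1 of 6 fits without 1 library. Library size alone shifted the median of all genes to 0.06 in 1-1 KO and 0.07 in 1-2 KO, with 16 collagen genes higher and 6 lower, and 20 higher and 7 lower. Of all tested genes, 63.5% and 55.4% passed under this scaling, and 56.9% and 60.1% of those that passed were higher. Same-numbered libraries did not deviate together (correlations from -0.353 to 0.182), and not every library correlated best with its own number. The highest correlation between libraries of different lines was 0.459, of 1-2 KO replicate 1 with WT replicate 3, and its cause was not tested. With a replicate block, 23, 25 and 26 collagen genes passed in the 3 comparisons, where 61.6%, 52.2% and 63.5% of all tested genes passed. COL6A2 in 1-1 KO was gained (adjusted p = 0.0353), and COL8A2 in 1-2 KO and COL6A1 in the direct comparison (both 0.0634) were lost.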

Other observations

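Among transcripts named after collagen genes but not coding for a chain, the pseudogene COL6A4P1 on chromosome 3 had 55 to 81 counts in every library and did not pass in any comparison (-0.12 and -0.18 against WT, adjusted p = 0.548 and 0.360, and -0.07 between the knockouts, adjusted p = 0.729). The antisense transcript COL18A1-AS1 had 6, 0 and 0 counts in WT, 7, 7 and 4 in 1-1 KO and 3, 2 and 5 in 1-2 KO. The others had at most 3 counts.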
